A study of Mus musculus with 2 samples.

Results

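Aquaporins were examined in mouse primary hepatocytes, the parenchymal cells of the liver taken into culture, after knockdown of G0s2. Members were chosen by gene name: every non-control probe of Aqp1, Aqp3, Aqp4, Aqp7, Aqp8, Aqp9 and Aqp11 on the array, which gave 10 probes of 39424 kept. The family was picked because several of its differences on these same arrays leaned upward, so its counts and medians are given as a description and support nothing further. Of the 7 genes, 6 were well above background on at least 1 array and 5 on both, out of 15418 genes measured.

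The series holds 2 samples, 1 from cells given G0s2 siRNA and 1 from cells given control siRNA, each measured on its own 1-colour array. The G0s2 protein binds and inhibits ATGL, the lipase that starts the breakdown of stored triglyceride. Per the labels' protocols both cultures were kept in serum-containing medium and received 50 pmol of siRNA with the same lipid reagent, so both carry the effects of transfection, and per the series' design text expression was measured 24 hours later. The labels name no strain, sex, age or number of animals, and nothing says that either culture was repeated. Each group being 1 array, no difference below has a replicate check or a test, and each one compares 2 arrays, not 2 conditions.

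Aquaporins are membrane channels that let water cross cell membranes along an osmotic gradient. A subgroup, the aquaglyceroporins, also passes glycerol and other small uncharged solutes. In hepatocytes AQP8 lies mainly in vesicles that can fuse with the canalicular membrane, and it has also been placed in mitochondria, while AQP9 lies in the sinusoidal membrane and takes up the glycerol that lipolysis in fat tissue releases. Glycerol entering through AQP9 is phosphorylated by glycerol kinase and feeds gluconeogenesis or triglyceride assembly.

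The 5 probes on which the comparison turns are shown because Aqp8 and Aqp11 were each read at a pair of separate sites and Aqp9 is the main hepatocyte glycerol channel. Sequences are those of the scanner tables, 5′ to 3′ in the sense of the transcript, with positions on mm9. The probe nearest the transcript start is given whole, at 60 bases, and the other probe of Aqp8 and Aqp11 by its last 30 bases. "From base" gives the position in the transcript at which the array's design places a probe. Capitals mark AATAAA, the usual polyadenylation signal. Searched on the probe strand alone, that hexamer occurred in 2 of the 10 aquaporin probes and in 12.6% of all probes. Exon and UTR annotation on this build was not used here.
Aqp8 from base 290, chr7:130606210-130606269, plus strand: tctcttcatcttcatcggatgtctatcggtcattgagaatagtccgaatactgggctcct
Aqp8 from base 1421, chr7:130611483-130611512, plus strand: ctgactttgtAATAAAtggcttagcatttc
Aqp11 from base 935, chr7:104877482-104877541, minus strand: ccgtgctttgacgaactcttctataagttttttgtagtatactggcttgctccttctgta
Aqp11 from base 1262, chr7:104874889-104874918, minus strand: aggctcattcattaaacatctacctatccc
Aqp9 from base 617, chr9:70978252-70978311, minus strand: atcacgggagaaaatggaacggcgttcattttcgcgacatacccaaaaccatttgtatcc

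Values are the scanner's processed signals, which are linear spot intensities after background subtraction. To compare the arrays, each log2 signal was taken relative to the 75th percentile of its array, 728 on the G0s2 siRNA array and 418 on the control array, and the control value was subtracted from the G0s2 siRNA value. Errors are those the scanner software gives a spot, carried to the log2 difference (median 0.20), and hold nothing of the spread between cultures or extracts. For 247 probes spotted 5 to 10 times, the SD of the difference between spots had a median of 0.065. The targeted gene G0s2 gave 103 on the G0s2 siRNA array and 383 on the control array, a difference of -2.70 ± 0.21. The hepatocyte marker Alb, for albumin, gave 320460 on the G0s2 siRNA array and 149796 on the control array, and all 10 listed hepatocyte markers were well above background on both arrays. Their median difference was 0.30, with Cps1, of the urea cycle, highest at 2.96. Of these markers, 9 lay above 0, against 45.0% of all measured genes, and their summed signal differed by 0.21 relative to the 75th percentile. 2-fold was passed upward by 2 of them and downward by 0, against 4.81% and 5.46% of all measured genes. The spike-in probes give another scale. They differed by -0.98 to -0.08 in log2 signal, and centring on their median put the median gene at 1.52, against -0.03 here. Directions below are therefore relative to the 75th percentile, and the true scale cannot be settled from 2 arrays.

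Of the 6 measured aquaporin genes, 1 was at least 2-fold higher with G0s2 siRNA and 0 were at least 2-fold lower. The background shares among all measured genes were 4.81% for higher and 5.46% for lower. They are also the background for the 2-fold counts of every gene list below. The median difference was 0.59 over the 6 genes, against -0.03 over all measured genes, and 4 of the 6 lay above 0, against 45.0% of all measured genes. Aqp4, measured on the G0s2 siRNA array only, enters as a bound that cannot lie below 0. Over the 5 genes measured on both arrays, the median was 0.56 and 3 lay above 0. All genes so measured had a median of -0.06, with 44.9% above 0. The water channels had values above 0 and the measured glycerol channels values below 0, but not all of them stood clear of 0. Aqp1, Aqp4 and Aqp8, which pass mainly water, ranged from 0.62 to 2.05, the value for Aqp4 being a bound. Of the glycerol channels, Aqp7 and Aqp9 were measured at -0.06 ± 0.25 and -0.39 ± 0.21, both less than 2 scanner errors from 0. Aqp3 was not measured. Normexp is a background correction, run here with an offset of 50 added to every signal, which raises low signals. Under it Aqp1 stood at 0.26, Aqp4 at 0 and Aqp8 at 2.22. Aqp7 and Aqp9 then stood at -0.49 and -0.31. All measured genes shifted too, to a median of -0.09 with 36.7% above 0. Centred on the spike-in probes, all 6 genes were at least 2-fold higher, with a lowest value of 1.19 for Aqp9, as were 85.0% of all genes, so the upward lean of the family is relative and the sign of both glycerol channels turns with the scale.

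**Figure D1:**
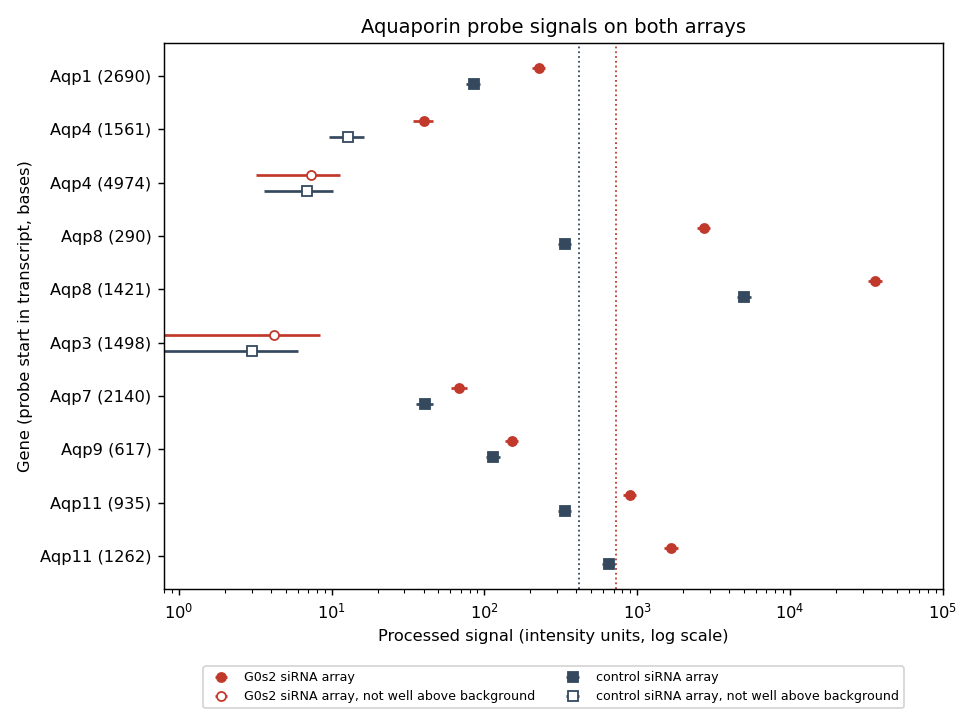
Processed signal (log scale) of each aquaporin probe on the G0s2 siRNA array (circles) and the control siRNA array (squares), with the scanner error as bars; rows are ordered by role, and open symbols were not well above background. Dotted lines mark each array's 75th percentile, 728 for G0s2 siRNA and 418 for control siRNA, and the pair of Aqp8 probes shows the widest gaps between the arrays.

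Aqp8 had the widest difference of the family, and its probes gave it at both sites. The brighter probe, from base 1421, read 36066 ± 3607 on the G0s2 siRNA array and 5009.8 ± 501 on the control array. The difference was 2.05 ± 0.20, or 4.14-fold higher with G0s2 siRNA. The probe from base 290 read 2736 ± 274 on the G0s2 siRNA array and 335 ± 33.6 on the control array. It differed by 2.23 ± 0.20, or 4.70-fold. Both spots stood far above their local background, at 68.0 and 65.0 beside raw spot means of 38768 and 2682 on the G0s2 siRNA array, and no spot on either array was saturated.

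The gap between these 2 differences was 0.18 on the log2 scale, with an error of 0.29. Across 3377 genes with 2 probes measured on both arrays, the median gap was 0.27 and the 90th percentile 0.88. The 2 Aqp8 spots lie in different regions of the array. Within 10 rows and 5 columns, the 128 other spots well above background around the probe from base 290 had a median difference of -0.11. Around the probe from base 1421, the 97 such spots had a median of -0.0045. Ranked by difference from the highest, Aqp8 was 73 of 15418 genes, 11 with normexp and 183 of 23601 with no filter on dim probes. It differed by 2.05 to 2.22 in the alternative settings other than spike-in centring, and by 3.63 under that one. In the authors' deposited table the intensities of the brighter probe were 28930 for G0s2 siRNA and 6555 for control siRNA.

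Aqp1, the water channel of red blood cells, bile duct cells and many endothelia, was read by 1 probe from base 2690 at chr6:55298480-55298539. It read 227 ± 23.0 on the G0s2 siRNA array and 84.9 ± 9.02 on the control array. The difference was 0.62 ± 0.21, or 1.54-fold higher. With normexp it was 0.26, where the median of all measured genes was -0.09. Markers of other cells that use Aqp1 lay on both sides of 0. Endothelial markers had a median of 0.59, with 8 of 10 measured. Against 4.81% and 5.46% of all measured genes, 1 of these markers passed 2-fold upward and 0 downward. Their summed signal, not scaled, was 5623 on the G0s2 siRNA array and 4176 on the control array, most of it from Kdr. Relative to the 75th percentile that sum differed by -0.37, opposite in sign to the median. Cdh5, the endothelial cadherin gene, differed by 1.01 and Flt1, a VEGF receptor gene, by 0.94. Lyve1, of sinusoidal endothelium, differed by 0.89 and Pecam1, an adhesion molecule gene, by 0.77. Cdh5, Lyve1 and Pecam1 were dim, at 28.1, 18.3 and 22.7 on the control array, where the lowest signal well above background was 14.3. The markers Clec4g, Eng and Stab2 differed by 0.41, -0.05 and -0.18. Kdr, another VEGF receptor gene, differed by -0.51 with a further probe at 1.27. Tek and Tie1, endothelial receptor kinase genes, were not well above background on either array, and the endothelial median was -0.11 with normexp. The part of these cells in the Aqp1 value was not tested, and in bulk RNA more cells of a type and more RNA per cell cannot be told apart.

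Cholangiocyte markers, for the bile duct cells that also hold AQP1 and AQP4, had a median of -0.87 with 7 of 9 measured, 1 past 2-fold upward and 2 downward. Their summed signal was 3238 on the G0s2 siRNA array and 3264 on the control array, a scaled difference of -0.81. Krt19, a keratin gene of bile ducts, differed by -1.13 and Cldn7, a tight junction gene, by -1.29. Prom1, for the surface protein prominin, went the other way at 1.21, a bound since it was not well above background on the control array, and Epcam and Cftr were not well above background on either array. Centred on the spike-in probes, their median was 0.70. Red blood cell markers had a median of 0 with 5 of 7 measured, a value set by Klf1 and Epor, which lay at the bound. Over the 2 measured on both arrays the median was -0.37. The list had summed signals of 335 on the G0s2 siRNA array and 270.4 on the control array, a scaled difference of -0.49. Alas2, of heme synthesis, and Slc4a1 were measured on both arrays and differed by -0.82 and 0.08. Hba-a1, a globin gene, gave a bound of 0.32. Macrophage markers, all 8 measured, had a median of 0.35, or -0.05 with normexp and 0.14 over those measured on both arrays. Their summed signals were 8939 on the G0s2 siRNA array and 5627 on the control array, a scaled difference of -0.13. Stellate cell markers, 4 of 8 measured, had a median of 0.15, or -0.09 with normexp. Their summed signals were 315 on the G0s2 siRNA array and 144 on the control array, a scaled difference of 0.33. The part of these cells in the Aqp1 value was not tested either.

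Aqp4, best known as the water channel of astrocytes, was at the edge of detection. Its probe from base 1561 read 40.0 ± 5.74 on the G0s2 siRNA array and 12.9 ± 3.33 on the control array, where it was not well above background. Set against the lowest signal well above background there, 14.3, it was at least 1.61-fold higher, a bound of 0.68. Its other probe, from base 4974, read 7.30 on the G0s2 siRNA array and 6.89 on the control array and was not well above background on either array. With normexp and its offset of 50 no fold was left for Aqp4, whose bound was held at 0. Its value thus depends on the background correction and offset together, which were not tested apart.

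Aqp9, the main glycerol channel of hepatocytes, read 151 ± 15.6 on the G0s2 siRNA array and 114 ± 11.8 on the control array. The signal itself was thus higher on the G0s2 siRNA array, by 1.33-fold, but by less than the 75th percentile was. Relative to that percentile the difference was -0.39 ± 0.21, or 1.31-fold lower, which is less than 2 scanner errors from 0. It lay between -0.45 and -0.23 in the alternative settings other than spike-in centring, which turned it to 1.19. At the probe's position the fitted trend of differences with position in the transcript was -0.16.

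Aqp7, through which fat cells release glycerol, was read at chr4:40980431-40980490 near the low end of the array. It read 68.5 ± 8.02 on the G0s2 siRNA array and 41.0 ± 5.08 on the control array. The difference was -0.06 ± 0.25, within the scanner error. With normexp it was -0.49, and with spike-in centring 1.52. Of 6 adipocyte markers, Fabp4, for a fatty acid binding protein, was the only one well above background on both arrays, at 0.07. Adipoq, Plin1, Lep and Cfd were below that limit on both, and Retn on the control array. Summed over Fabp4 and Retn, the signal was 1849 on the G0s2 siRNA array and 1010.3 on the control array, a scaled difference of 0.07.

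Aqp3, an aquaglyceroporin of skin and kidney collecting duct, read 4.20 ± 4.19 on the G0s2 siRNA array and 3.0 ± 3.0 on the control array. Both signals are about as large as their error and neither was well above background, so no fold is given. Its 1 probe lies at chr4:41039962-41040021.

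Aqp11 belongs to a divergent branch of the family and lies in the endoplasmic reticulum. Mice without it develop kidney cysts and vacuoles in liver cells. Its probe from base 1262 read 1668 ± 167 on the G0s2 siRNA array and 649 ± 65.0 on the control array, and the probe from base 935 read 892 ± 89.3 on the G0s2 siRNA array and 335 ± 33.7 on the control array. The differences were 0.56 ± 0.20 and 0.61 ± 0.20, or 1.48-fold and 1.53-fold higher. They lay 0.05 apart on the log2 scale, and 11.8% of the genes with 2 probes had a smaller gap. Outside spike-in centring the brighter probe stayed between 0.56 and 0.65 in the alternative settings.

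**Figure D2:**
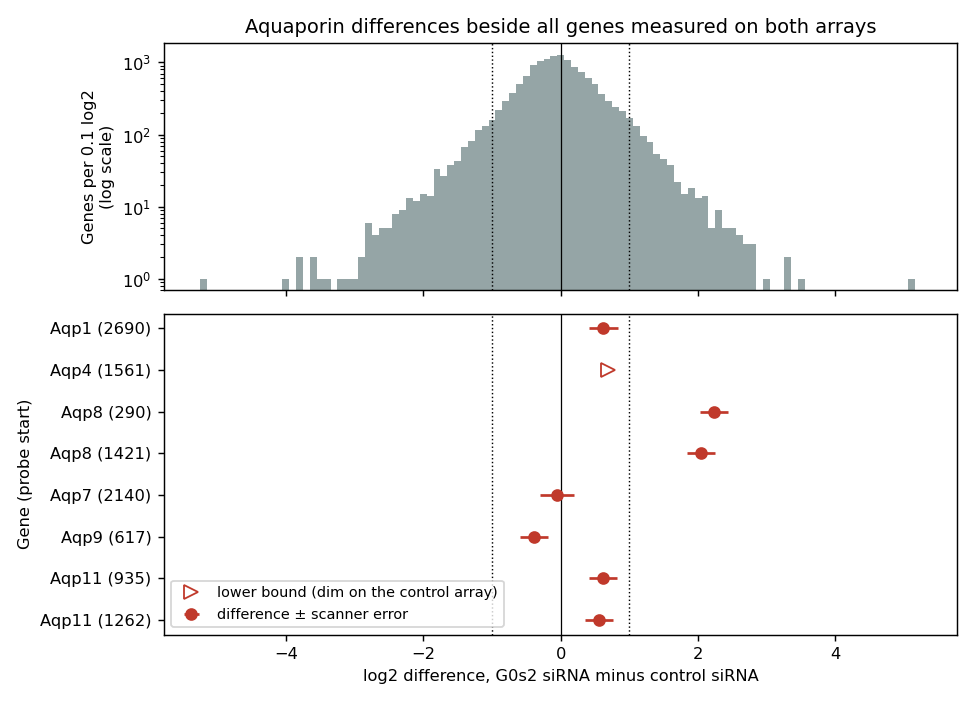
Upper panel, number of genes (log scale) per 0.1 of log2 difference, G0s2 siRNA minus control siRNA, for genes measured on both arrays; lower panel, the same difference for each measured aquaporin probe, with the scanner error as bars and an open triangle for the Aqp4 bound. Dotted lines mark 2-fold: both Aqp8 probes, at 2.05 and 2.23, lie beyond it and the other probes lie between -0.39 and 0.68.

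The gaps between members do not depend on how the arrays are centred, since any shift cancels between genes of the same arrays. Aqp8 exceeded Aqp9 by 2.44 ± 0.29 and Aqp7 by 2.11 ± 0.32 in log2 difference. It exceeded Aqp1 by 1.43 ± 0.29 and Aqp11 by 1.49 ± 0.29. Aqp1 and Aqp11 exceeded Aqp9 by 1.01 ± 0.30 and 0.95 ± 0.29, and Aqp7 by 0.68 ± 0.32 and 0.62 ± 0.32. They do depend on the background correction and its offset where a gene is dim. With normexp, Aqp1 exceeded Aqp9 by 0.56, under 2 errors of the main setting, and Aqp11 exceeded Aqp7 by 1.1. No error was computed for normexp itself. The gaps of Aqp8 over the other 4 genes lay between 1.43 and 2.71 in the 5 settings in which they were computed. These are gaps between differences; signals of different probes bind with different strength and were not ranked.

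**Figure D3:**
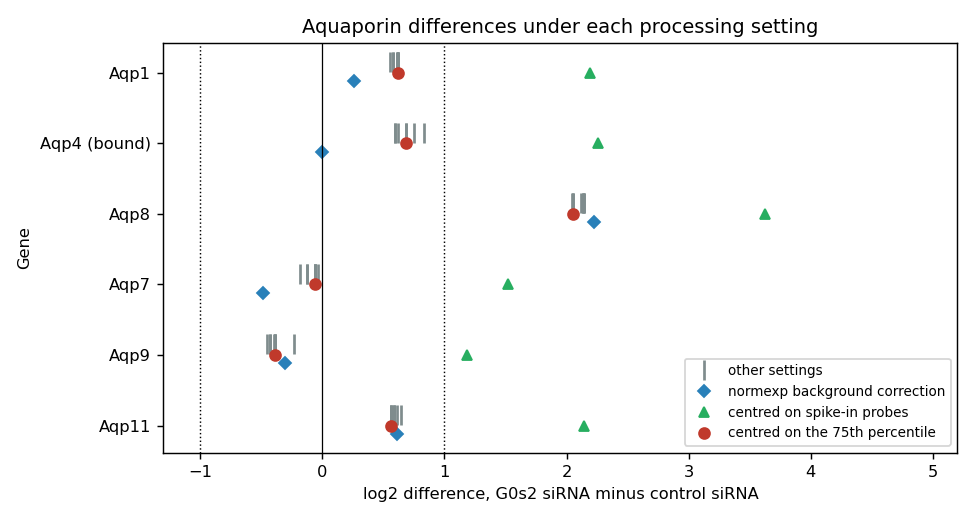
Log2 difference, G0s2 siRNA minus control siRNA, of each measured aquaporin under the main setting (circles), normexp background correction (diamonds), spike-in centring (triangles) and the other settings (ticks). Aqp8 lies between 2.05 and 3.63 in every setting plotted, while Aqp7 and Aqp9 are below 0 except under spike-in centring.

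Of 5 other aquaporin genes on the array, Aqp2, the vasopressin-regulated water channel of the kidney, was the 1 gene measured. It read 87.2 on the G0s2 siRNA array and 50.1 on the control array, a difference of 0.0025 ± 0.23. Mip, Aqp5, Aqp6 and Aqp12 were not well above background on either array.

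Genes around the glycerol that AQP9 and AQP7 carry lay mostly at or above 0. Of 13 genes of glycerol release and use, all measured, 9 were above 0, the other 4 reached -0.16 at the lowest, 2 passed 2-fold upward and 0 downward, around a median of 0.15. Among all measured genes, 45.0% lay above 0, 4.81% passed 2-fold upward and 5.46% downward. Lipe, dim on the control array, gave a bound of 0.67 that cannot lie below 0, and was named after its value was seen. Mgll, whose lipase frees glycerol from monoglycerides, differed by 1.40, with further probes at 1.08 and 0.82. Gpd1, which links glycerol phosphate with glycolysis, differed by 1.06, Gpam, of triglyceride assembly, by 0.70 with a further probe at 0.30, and G6pc, of glucose release, by 0.42. Gk, the glycerol kinase acting next after AQP9, is named here after its value was seen. It read 591 on the G0s2 siRNA array and 336 on the control array, a difference of 0.016 ± 0.20.

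Of 12 genes known to act on aquaporin expression or on the hormones that control it, 1 passed 2-fold upward and 1 downward, around a median of 0.44. For this list and those that follow, the shares of all measured genes were 4.81% upward and 5.46% downward. Pparg, the nuclear receptor gene that drives Aqp7 in fat cells, read 219 on the G0s2 siRNA array and 497 on the control array, a difference of -1.99. Hnf4a, a hepatocyte transcription factor gene, differed by 1.04, Ppara, the fasting-state nuclear receptor gene, by 0.94 and the coactivator gene Ppargc1a by 0.76. Further probes of Ppara gave 0.62 and 0.06, and that of Ppargc1a 0. The counts rest on the brightest probe of each gene. Insr, for the insulin receptor, differed by 0.06 there, with further probes at 1.23 and 0.37. Irs1 differed by 0.02 with a further probe at -0.61, and Nr3c1 by 0.46 with a further probe at -0.48. Insr, Irs1 and Nr3c1 were named after their values were seen. Foxo1, which insulin restrains, was named after its value was seen and differed by -0.23, with a further probe at -0.01.

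Of 9 transport partners of the canalicular and sinusoidal membranes, between which AQP8 and AQP9 are divided, 0 passed 2-fold upward and 1 downward, around a median of 0.16. The lower gene was Abcb4, the phospholipid exporter of bile, at -1.27. Slc4a4, a bicarbonate transporter gene, differed by 0.50 with a further probe at 0.72, the scaffold gene Slc9a3r1 by 0.45 and Ezr, for the membrane linker ezrin, by -0.39. These counts rest on the brightest probe of each gene: further probes of Slc10a1, a bile acid uptake carrier gene, and Rdx, for the membrane linker radixin, gave 1.06 and 1.01, against 0.32 and 0.16 at their brightest. Both were named after their values were seen.

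AQP8 also passes ammonia and hydrogen peroxide, and 8 of 10 genes for urea and ammonia transport and peroxide removal were measured, with a median of 0.0020. Of these, 0 passed 2-fold upward and 1 downward, the ammonia transporter gene Rhbg at -1.52. Catalase, encoded by Cat, differed by 0.48 with a further probe at 0.75, Sod1, for superoxide dismutase, by -0.20 and the urea transporter gene Slc14a2 by -0.37 with a scanner error of 0.43. Of 11 genes of the response to cell volume and osmotic stress, 2 passed 2-fold upward and 1 downward, around a median of 0.02. Lrrc8a, a subunit of the volume-regulated anion channel, differed by 2.74 with a further probe at 1.79, and the kinase gene Sgk1 by 1.03. Akr1b3, which makes the osmolyte sorbitol, differed by -1.10 with a further probe at -1.04, and the kinase gene Wnk1 by 0.90 with a further probe at -0.01.

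**Figure D4:**
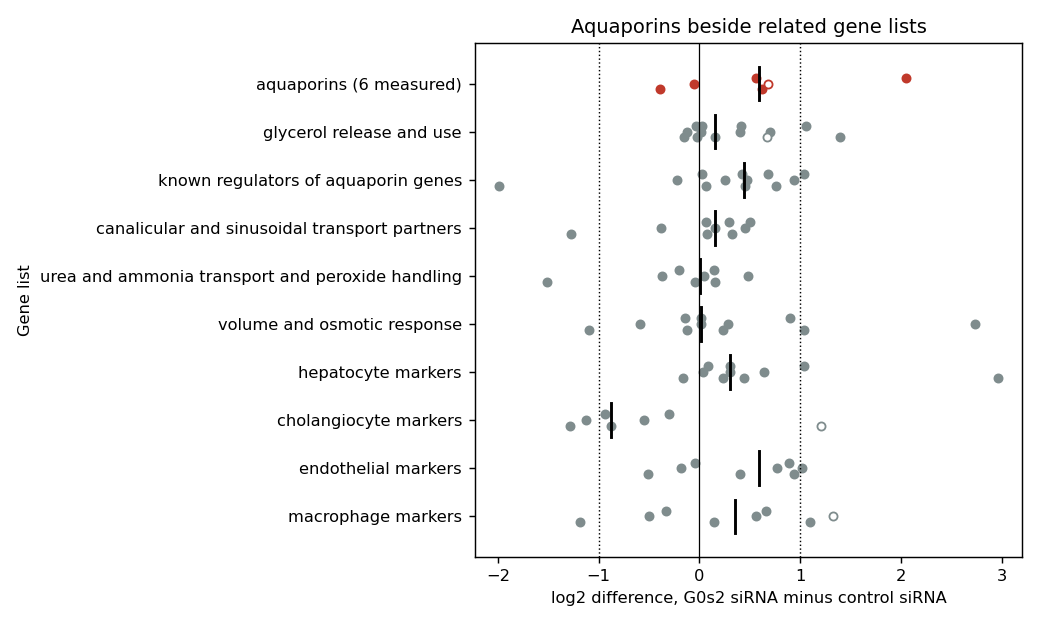
Log2 difference, G0s2 siRNA minus control siRNA, of each measured gene (points) in the aquaporins, 5 related lists and 4 lists of cell type markers, with the list median as a black bar; open points are bounds. The aquaporin median is 0.59 and Aqp8 stands apart from the other members, and the cholangiocyte median of -0.87 is the lowest of the lists plotted.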

How the data were processed

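RNA from 2 mouse hepatocyte cultures was read on 2 arrays of 1 slide scanned together, so the array position and the siRNA given cannot be told apart. The intensity values were deposited by the authors as scanner tables made with Agilent Feature Extraction 10.7.1.1, per the file headers, and were background-subtracted within the array. The authors' series table holds intensity values normalized between arrays by a method not given in the sources used here.

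Spots flagged as outliers were left out, spots of a probe were averaged on the log2 scale, and each array's 75th percentile was subtracted. Genes were named through RefSeq (GRCm38.p6) accessions, symbols or synonyms, which left 8429 probes unnamed. A gene took the value of the brightest of its probes that passed the above-background flag on either array. A value dim on 1 array was set to the higher of itself and the lowest well-above-background signal there, as a bound. Only 1 array per group exists, so no test was made, and precision is limited by that number. The size rule was 2-fold. The members, their roles and the gene lists were chosen with earlier results of these data known. All members were named, with up to 4 genes measured on both arrays per related list, by size of difference, and further ones marked in the text. Cell type markers were named without a size rule, after their values were seen. The calculation was tested on simulated data. Python 3.11.15, R 4.3.3 and limma 3.58.1 were used.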

Additional observations from a re-analysis of the deposited data

How the results depend on the processing

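The count of 1 aquaporin gene at least 2-fold higher with G0s2 siRNA was 6 with spike-in centring and 3 at a rule of 1.5-fold (12.4% of all genes). It was 3 at a rule of over 2 scanner errors, applied to genes measured on both arrays (5 members, and 14119 genes with 17.3% past it upward). It was 1 under the other settings: normexp, median centring, quantile and cyclic loess normalization, a stricter and no filter on dim probes, averaging the probes of a gene, the authors' series table, removal of the trend with probe position, and a 3-fold rule. The count of genes at least 2-fold lower was 0 under each of these. The family median of 0.59 was 0.13 with normexp (offset 50), where the median of all genes was -0.09. The dim genes Aqp1, Aqp4 and Aqp7 then stood at 0.26, 0 (no fold left) and -0.49. With spike-in centring the family median was 2.17, where the median of all genes was 1.52. Spike-in centring also put higher genes at 99.7% of all genes past 2-fold, against 46.8%. The 741 higher and 842 lower genes were 1523 and 1455 with no filter, 380 and 519 with normexp, and 13106 and 38 with spike-in centring. Aqp7 and Aqp9 lay below 0 in 9 of 10 alternatives and above 0 with spike-in centring; Aqp1, Aqp8 and Aqp11 lay above 0 in all 10. Low signal limits Aqp3, Aqp4 and Aqp7. No paired analysis was possible because each group holds 1 array.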
